A study of Mus musculus with 13 samples.

Results

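Imprinted genes that act on growth were followed through chemical reprogramming of mouse fibroblasts. They were the rows of the deposited expression table whose symbol is H19, Igf2, Dlk1, Cdkn1c, Peg10, Peg3, Mest, Grb10, Igf2r or Plagl1, and all 10 were found among 15176 genes. From textbook knowledge 4 of them (H19, Cdkn1c, Grb10 and Igf2r) are expressed mainly from the maternal chromosome and 6 (Igf2, Dlk1, Peg10, Peg3, Mest and Plagl1) mainly from the paternal one. RNA had been sequenced in 13 libraries. Mouse embryonic fibroblasts (MEF, n = 3) were untreated cells of strain C57xICR grown in serum-containing medium. Oct4-GFP-negative cells (n = 2) had the same strain and were picked from cultures under the compound mix coded VC6TF. Clusters and colonies that carried the Oct4-GFP signal were also C57xICR, were picked under VC6TF+Z, and had 1 library each. Embryonic stem cells (ESC) were untreated cells of the R1 line, labelled strain 129 (n = 4). Chemically induced pluripotent stem cells (CiPSC) were lines 6 and 11, C57xICR, made with VC6TFMB+Z. ESC and CiPSC were kept on feeder layers of mitotically blocked MEF. The labels do not say whether feeders were removed before RNA was isolated. Strain and cell type cannot be told apart wherever ESC are compared with any other group. The labels do not say whether replicates came from separate cultures, so p-values measure only the spread between these libraries.

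Imprinted genes carry DNA methylation set down in the egg or the sperm, and one parental copy stays silent as a result. Paternally expressed genes of this set tend to promote growth of the embryo and placenta, and maternally expressed ones tend to restrain it. Grb10 is a known exception in part, being maternal in most mouse tissues and paternal in neurons. The reads were not assigned to parental alleles, so a level below is the sum of both copies and says nothing about which copy was active.

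Levels are RPKM, reads scaled to the length of the gene and the size of the library. The length used was inferred from the values and is not stated by the submitters. In 10 libraries the low values step in whole reads when the length is taken as the span of the gene, introns included, and in 3 (CiPSC 6, CiPSC 11 and ESC 4) the values fit exonic length, so only libraries on the same inferred scale were compared. Estimated depth in the gene-span libraries was 8.89 to 17.7 M reads, and it is unknown in the other 3. The labels were checked with marker genes. All 10 pluripotency markers rose in ESC relative to MEF. Pou5f1, the gene for Oct4, stood at 0.26 RPKM in the clusters, against 0.191 and 0.429 RPKM in the GFP-negative libraries, and at 124 RPKM in the colonies, so the clusters showed no Pou5f1 RNA above GFP-negative cells despite their label. The 10 pluripotency markers summed to 651 RPKM in the colonies, against 1.72 RPKM in the clusters and 966 to 1228 RPKM in gene-span ESC. In the colonies 7 of the 10 reached 1 RPKM, and in each gene-span ESC library all 10 did. Nanog was among those that did not, at 0.0418 RPKM in the colonies, against 51.7 to 55.4 RPKM in gene-span ESC libraries. The 4 measured markers of extraembryonic endoderm summed to 34.1 RPKM in the colonies and 4.1 RPKM in the clusters. Their sums were 2.34 and 6.32 RPKM in GFP-negative cells and 0.0931 to 0.248 RPKM in ESC. The cluster sum lay within the GFP-negative range, but single markers differed. Of the 3 tested, 2 were higher in the clusters than in GFP-negative cells by a log2 difference of 1 or more, and 1 was lower. Of all genes, 11.4% were that much higher and 13.2% that much lower. MEF 3 stood apart from the other MEF libraries. Its 4 macrophage markers summed to 188 RPKM, against 18.1 RPKM in the lowest MEF library, and its 10 fibroblast markers summed to 2668 RPKM, against 695 RPKM in the lowest. Macrophage markers summed to 0.27 and 1.55 RPKM in GFP-negative cells, 1.13 RPKM in clusters, 20.8 RPKM in colonies and 3.12 to 10.8 RPKM in gene-span ESC. On the exon scale they summed to 34.7 RPKM in ESC 4 and 42.4 and 41.0 RPKM in CiPSC 6 and 11. Of the 3 tested, Lyz2 fell in ESC and in GFP-negative cells relative to MEF (log2 change −5.05 in each). Laptm5 (0.22 in ESC, −1.38 in GFP-negative cells) and Cd68 (−1.69 and −2.80) did not pass. Fibroblast markers summed to 250.2 to 293 RPKM in GFP-negative cells, 197 RPKM in clusters, 54.3 RPKM in colonies and 11.6 to 25.5 RPKM in ESC. Of the 9 fibroblast markers tested, 9 fell in ESC relative to MEF, but in GFP-negative cells relative to MEF 4 fell and 5 did not pass, with changes from −4.94 (Col1a2) to 1.28 (Twist1). The part of either list in the member changes below was not tested. In bulk RNA, fewer cells of a type and less RNA per cell cannot be told apart.

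The deposited values also differ in how an unmeasured gene is written. MEF 1, MEF 2, both GFP-negative libraries, the clusters, ESC 1 and ESC 2 hold exact 0, whereas MEF 3, the colonies and ESC 3 hold 0.001, and results are given within these sets where they matter.

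Igf2 encodes insulin-like growth factor 2, the main fetal growth factor of the set, and H19 is the non-coding RNA transcribed beside it on chromosome 7 and driven by shared enhancers. H19 was the most abundant member of MEF. It was measured at 1349, 1343 and 3649 RPKM in MEF 1, 2 and 3, at 89.9 and 49.2 RPKM in GFP-negative cells, at 253 RPKM in the clusters, at 145 RPKM in the colonies, and at 1.41, 0.758 and 9.35 RPKM in ESC 1, 2 and 3. No range of 1 group touched that of another, and the order from high to low was MEF, clusters, colonies, GFP-negative cells, ESC. H19 fell in ESC relative to MEF (change −9.06 on the log2(RPKM + 1) scale, SE 0.69, limma adjusted p = 6.7e-05), the mean being 551 times lower. It also fell in GFP-negative cells relative to MEF (log2 change −4.80, SE 0.77, limma adjusted p = 0.00712), and in ESC relative to GFP-negative cells (log2 change −4.26, SE 0.77, limma adjusted p = 0.00429). ESC 3 had the highest H19 of the ESC libraries. Without it the ESC change relative to MEF was −9.83 and relative to GFP-negative cells −5.04. With the replicate block, and equally with a term for libraries with 0.001, the GFP-negative change relative to MEF was −4.17.

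H19 is the precursor of miR-675, whose mature forms are shown because every H19 transcript can carry them. They were taken from RefSeq (GRCm38.p6, chromosome 7, minus strand), with the seed (bases 2 to 8) in capitals. The strands differ in their seed. The miRNAs themselves were not measured here.
mmu-miR-675-5p: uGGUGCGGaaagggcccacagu
mmu-miR-675-3p: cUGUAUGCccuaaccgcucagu

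Igf2 had the same order as H19 except that its colony level lay below the GFP-negative cells. It stood at 286, 291 and 607 RPKM in MEF 1, 2 and 3, at 68.7 and 60.1 RPKM in GFP-negative cells, at 110 RPKM in the clusters, at 5.65 RPKM in the colonies, and at 0.365, 0.643 and 4.13 RPKM in ESC 1, 2 and 3. MEF, clusters and GFP-negative cells lay above colonies and ESC with no overlap. Igf2 fell in ESC relative to MEF (log2 change −7.36, SE 0.52, limma adjusted p = 4.4e-05). The mean was 230.5 times lower, and the log2 change was −7.95 without ESC 3. Igf2 also fell in ESC relative to GFP-negative cells (log2 change −4.85, SE 0.58, limma adjusted p = 0.000598, and −5.44 without ESC 3). The lower level in GFP-negative cells relative to MEF was smaller (log2 change −2.51, SE 0.58, limma adjusted p = 0.0314) and passed the test in only 8 of 18 alternatives. The call was lost when any 1 MEF library was left out (limma adjusted p 0.058 to 0.0635). It was also lost without GFP-negative 1 (log2 change −2.60), without GFP-negative 2 (−2.41) and without either CiPSC library. ESC 4 was left out only together with both CiPSC libraries, and the call was lost there too. That fit is the same as the fit of the gene-span libraries alone, so it is counted again among the 18.

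The H19 to Igf2 ratio, both per kilobase of gene span, was 4.71, 4.62 and 6.02 in MEF 1, 2 and 3. It was 1.31 and 0.82 in GFP-negative cells, 2.31 in the clusters, 25.6 in the colonies, and 3.86, 1.18 and 2.27 in ESC 1, 2 and 3. The ratio in the colonies was above that of every other gene-span library. The colonies are 1 library, and this was not tested. Igf2 spans 16.1 kb with 5.72 kb of exon, and H19 spans 2.615 kb with 2.46 kb of exon. Gene span therefore lowers Igf2 more than H19, and the ratio is compared between libraries only.

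**Figure D1:**
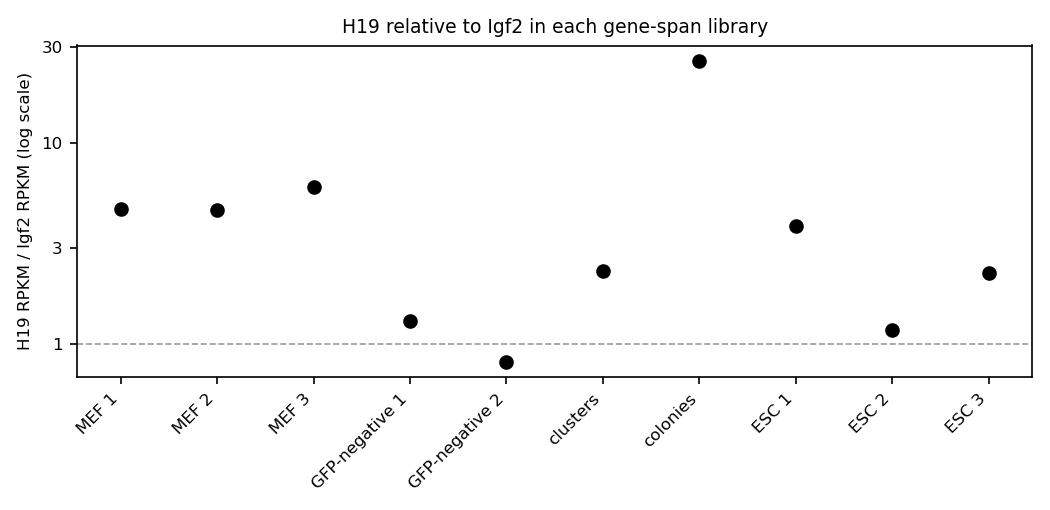
H19 RPKM divided by Igf2 RPKM in each of the 10 gene-span libraries, on a log scale, with a dashed line at 1. The colonies stand at 25.6, above the MEF libraries (4.62 to 6.02) and ESC libraries (1.18 to 3.86). Only GFP-negative 2 lies under 1 on the gene-span scale. The position against 1 depends on that scale, which lowers Igf2 more than H19.

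Promoters are shown for the members whose levels frame the results: Igf2 and Dlk1, with large falls in ESC relative to MEF, and Mest and Peg3, paternally expressed members that ESC still held at several RPKM. RefSeq (GRCm38.p6) gave 13 windows, each from 250 bases before to 50 bases after a transcription start, for 7 of the 10 members. H19, Cdkn1c and Peg10 were not among them. Capitals mark a match to GGGGCCCC (core of the PLAGL1 motif), TGCCGC (ZFP57) or GGNGGCAG (core of the CTCF motif) on either strand. For Igf2 and Mest, which have several starts, the window is the 1 richest in CpG for Igf2 and the first of an overlapping pair for Mest.
Igf2, chr7:142658755-142659054, minus strand: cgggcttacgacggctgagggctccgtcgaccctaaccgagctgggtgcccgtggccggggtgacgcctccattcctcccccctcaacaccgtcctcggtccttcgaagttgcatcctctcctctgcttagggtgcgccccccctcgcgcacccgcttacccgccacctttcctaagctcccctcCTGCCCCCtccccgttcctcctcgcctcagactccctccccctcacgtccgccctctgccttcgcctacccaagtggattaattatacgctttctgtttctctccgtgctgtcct
Dlk1, chr12:109452573-109452872, plus strand: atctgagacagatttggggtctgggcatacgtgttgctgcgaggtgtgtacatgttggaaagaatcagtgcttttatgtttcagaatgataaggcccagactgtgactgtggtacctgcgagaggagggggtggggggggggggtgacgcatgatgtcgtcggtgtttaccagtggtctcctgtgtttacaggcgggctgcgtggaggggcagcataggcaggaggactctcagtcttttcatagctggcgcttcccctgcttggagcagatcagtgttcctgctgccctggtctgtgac
Mest, chr6:30737800-30738099, plus strand: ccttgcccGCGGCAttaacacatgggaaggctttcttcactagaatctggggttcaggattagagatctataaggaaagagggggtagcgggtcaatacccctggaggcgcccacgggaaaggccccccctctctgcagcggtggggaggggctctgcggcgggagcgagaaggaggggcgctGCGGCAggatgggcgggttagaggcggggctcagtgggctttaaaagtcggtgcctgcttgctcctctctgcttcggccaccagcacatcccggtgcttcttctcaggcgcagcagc
Peg3, chr7:6730370-6730669, minus strand: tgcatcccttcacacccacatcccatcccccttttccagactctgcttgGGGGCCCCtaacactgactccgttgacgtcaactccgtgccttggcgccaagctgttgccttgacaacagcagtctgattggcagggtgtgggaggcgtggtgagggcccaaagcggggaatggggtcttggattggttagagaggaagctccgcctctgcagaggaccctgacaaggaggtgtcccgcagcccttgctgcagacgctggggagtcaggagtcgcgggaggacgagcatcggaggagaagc

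These windows differed in CpG content, the substrate of DNA methylation, with 24 CpGs in the Igf2 window, 17 in Mest, 13 in Peg3 and 9 in Dlk1. The Igf2 window was chosen as its richest, and the other Igf2 windows held 14, 7 and 2 CpGs, while the Mest window outside the overlapping pair held 8. The median over all 32851 RefSeq windows was 7, and the windows shown were not compared with it. The ZFP57 hexamer occurred in 5 of the 13 member windows, with 2 copies in the Mest window shown, and in 11.6% of all windows. The PLAGL1 core was found in 1 member window, that of Peg3, and in 1.08% of all windows. The CTCF core occurred in 2 of 13 and in 12.6% of all. The TATA box (TATAAA) was in 0 of 13 and in 13.6% of all. In 1 Grb10 window the ZFP57 and CTCF matches overlap. The Mest windows overlap as well, so their matches are the same bases. These are matches of letters, not measured binding.

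Igf2r and Grb10 act on the receiving side of the pathway. Igf2r encodes the receptor that takes IGF2 to the lysosome. Its levels were 2.14, 2.18 and 7.60 RPKM in MEF 1, 2 and 3, 7.84 and 7.41 RPKM in GFP-negative cells, 4.51 RPKM in the clusters, 1.96 RPKM in the colonies, and 1.42, 1.90 and 1.45 RPKM in ESC 1, 2 and 3. GFP-negative cells were the highest group by mean, and MEF 3 alone reached their range. Igf2r fell in ESC relative to GFP-negative cells (log2 change −1.74, SE 0.42, limma adjusted p = 0.0147), a call lost without GFP-negative 1 (adjusted p = 0.0596). The GFP-negative against MEF change of 0.97 (SE 0.42, limma adjusted p = 0.188) did not pass, but it did without MEF 3 (log2 change 1.45, adjusted p = 0.006). The ESC against MEF change of −0.77 (SE 0.38, limma adjusted p = 0.173) did not pass, although the ESC and MEF ranges were apart. Reads of the antisense RNA Airn, which overlaps Igf2r, cannot be told apart from it, since no source used here states how strand was handled.

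The Igf2 to Igf2r ratio per gene span was 134, 134 and 79.8 in MEF 1, 2 and 3 and 8.76 and 8.11 in GFP-negative cells. It was 24.3 in the clusters, 2.88 in the colonies, and 0.257, 0.338 and 2.85 in ESC 1, 2 and 3. Igf2r spans 87.3 kb with 9.31 kb of exon, so gene span lowers it more than Igf2. This ratio too is compared between libraries only.

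Grb10 encodes an adaptor that dampens signalling from the insulin and IGF1 receptors. It stood at 6.17, 6.54 and 7.78 RPKM in MEF 1, 2 and 3, at 0.159 and 1.78 RPKM in GFP-negative cells, at 0.248 RPKM in the clusters, at 0.648 RPKM in the colonies, and at 0.259, 0.636 and 0.680 RPKM in ESC 1, 2 and 3. Every MEF library lay above every other, the GFP-negative range spanned the colonies, and the clusters lay just under the lowest ESC library. Grb10 fell in GFP-negative cells relative to MEF (log2 change −2.12, SE 0.34, limma adjusted p = 0.00714) and in ESC relative to MEF (log2 change −2.37, SE 0.31, limma adjusted p = 0.00106). The GFP-negative libraries lay far apart, and the change between GFP-negative cells and MEF was −1.49 without GFP-negative 1 and −2.75 without GFP-negative 2, still called in each, and the call was lost in the exact-0 set alone (adjusted p = 0.0883). With a pseudocount of 0.1 the ESC change was −3.55 and the GFP-negative change −3.30.

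Cdkn1c encodes p57, an inhibitor of cyclin-dependent kinases that brings cells out of the cycle. It was measured at 46.8, 47.8 and 523 RPKM in MEF 1, 2 and 3, at 3.24 and 2.22 RPKM in GFP-negative cells, at 38.4 RPKM in the clusters, at 13.8 RPKM in the colonies, and at 1.59, 0.184 and 3.51 RPKM in ESC 1, 2 and 3. The GFP-negative and ESC ranges overlapped, and the clusters lay just under the MEF 1 and 2 values. Cdkn1c fell in ESC relative to MEF (log2 change −5.48, SE 0.89, limma adjusted p = 0.00332) and in GFP-negative cells relative to MEF (log2 change −4.85, SE 1.0, limma adjusted p = 0.0201). Without MEF 3, whose value stood far above the other MEF libraries, these changes were −4.33 and −3.71. With the replicate block, and equally with a term for libraries with 0.001, the GFP-negative change was −4.05. The second call was lost without either GFP-negative library (adjusted p 0.0539 and 0.0739).

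Dlk1 encodes a membrane protein related to Notch ligands that holds progenitor cells back from differentiation. It stood at 65.6, 51.2 and 409 RPKM in MEF 1, 2 and 3, at 0.00861 and 0.0277 RPKM in GFP-negative cells, at 0.0107 RPKM in the clusters, at 1.39 RPKM in the colonies, and at 0.0574, 0.0945 and 0.428 RPKM in ESC 1, 2 and 3. In reads, Dlk1 had 1 and 3 in GFP-negative cells and 1 in the clusters, against 8138, 9544 and 41221 in MEF 1, 2 and 3. The exact 95% Poisson interval of the cluster value was 0.000271 to 0.0596 RPKM, so the clusters and the GFP-negative cells could not be ranked at this depth. Dlk1 fell in GFP-negative cells relative to MEF (change −6.79 on the log2(RPKM + 1) scale, SE 0.74, limma adjusted p = 0.000976) and in ESC relative to MEF (log2 change −6.57, SE 0.67, limma adjusted p = 0.000298). Without MEF 3 these were −5.86 and −5.64. With a pseudocount of 0.1 they were −9.88 and −8.78, since groups near 0 set the size of the change. ESC against GFP-negative cells did not pass (log2 change 0.22, SE 0.74, limma adjusted p = 0.846).

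**Figure D2:**
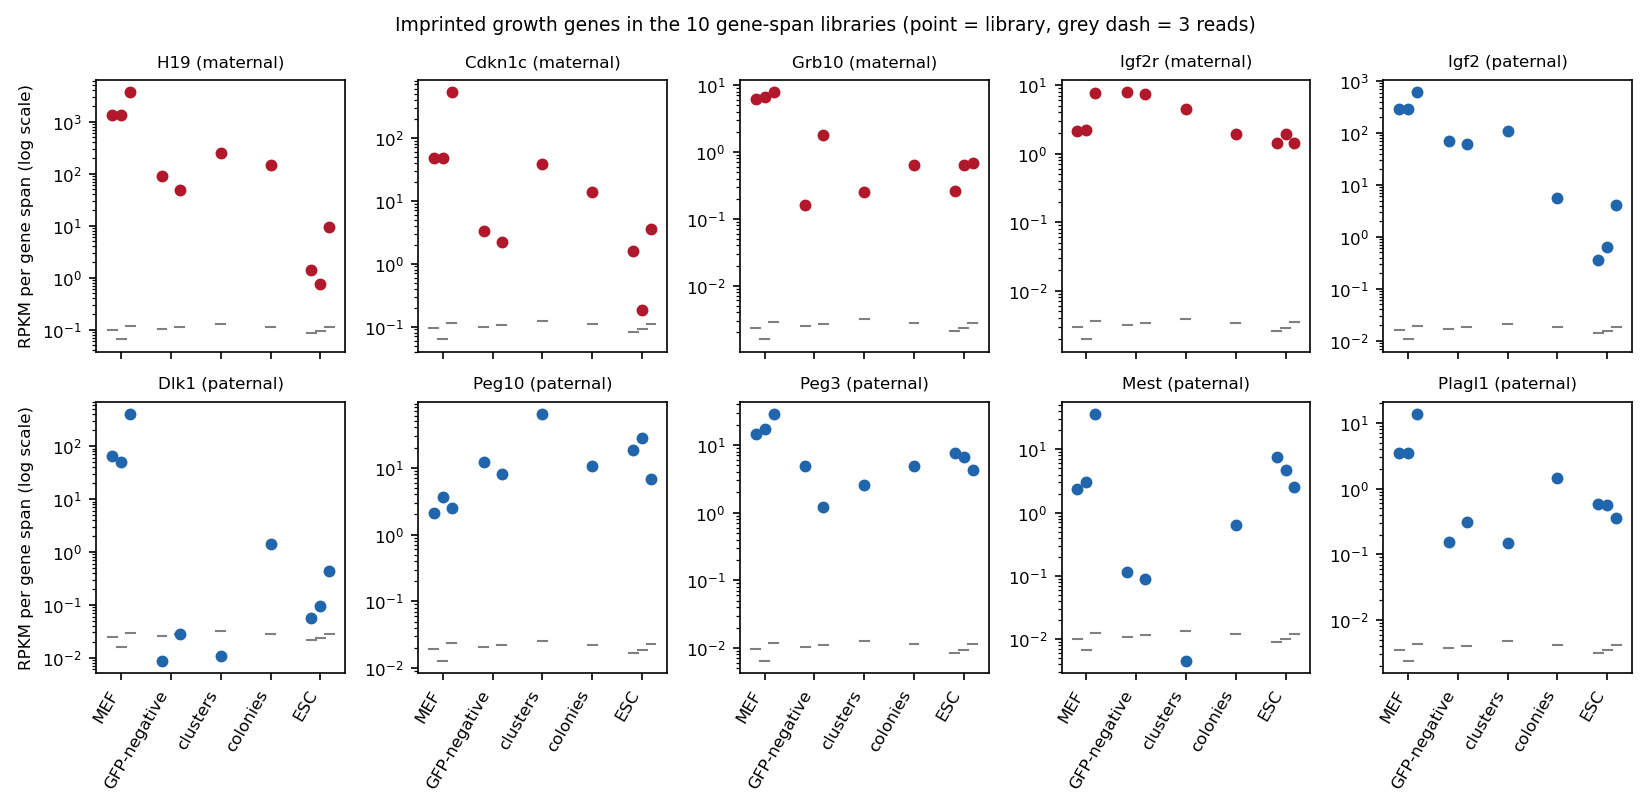
RPKM per gene span of the 10 members in MEF, GFP-negative cells, clusters, colonies and ESC, on log axes that differ between panels. Each point is 1 library, red points are maternally and blue points paternally expressed genes, and grey dashes mark the RPKM of 3 reads in that library. Only Dlk1 (GFP-negative cells and clusters) and Mest (clusters) reach that floor.

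Plagl1 and Peg3 encode zinc finger proteins that bind DNA, and mouse Plagl1 is known to act on other imprinted genes. Plagl1 stood at 3.47, 3.54 and 13.7 RPKM in MEF 1, 2 and 3, at 0.154 and 0.307 RPKM in GFP-negative cells, at 0.150 RPKM in the clusters, at 1.45 RPKM in the colonies, and at 0.578, 0.560 and 0.360 RPKM in ESC 1, 2 and 3. All MEF libraries were above all others, and the colonies came next. Plagl1 fell in GFP-negative cells relative to MEF (log2 change −2.44, SE 0.47, limma adjusted p = 0.0148), a call lost without GFP-negative 1 (adjusted p = 0.0721). It also fell in ESC relative to MEF (log2 change −2.16, SE 0.42, limma adjusted p = 0.00705). That change was −1.52 in the exact-0 set and −3.25 with a pseudocount of 0.1, called in both.

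Peg3 stood at 14.4, 17.5 and 28.8 RPKM in MEF 1, 2 and 3, at 4.93 and 1.22 RPKM in GFP-negative cells, at 2.58 RPKM in the clusters, at 4.95 RPKM in the colonies, and at 7.53, 6.58 and 4.32 RPKM in ESC 1, 2 and 3. Apart from MEF, which lay above, the groups overlapped or adjoined. Peg3 fell in GFP-negative cells relative to MEF (log2 change −2.49, SE 0.46, limma adjusted p = 0.0128). The exact-0 set alone did not give that call (adjusted p = 0.0865), and the change was −3.20 without GFP-negative 1 and −1.78 without GFP-negative 2. The fall in ESC relative to MEF (log2 change −1.54, SE 0.41, limma adjusted p = 0.0272) was less secure. It passed in 11 of 18 alternatives and was lost without MEF 2, MEF 3, ESC 2, ESC 3, CiPSC 6 or CiPSC 11 (adjusted p 0.0513 to 0.0782) and in the exact-0 set (adjusted p = 0.225). ESC against GFP-negative cells gave 0.95 (SE 0.46, limma adjusted p = 0.147), which passed without GFP-negative 1 (log2 change 1.66, adjusted p = 0.0301).

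Peg10 is a gene derived from a retrotransposon and needed for the mouse placenta. It was the member that rose. Its levels were 2.12, 3.59 and 2.50 RPKM in MEF 1, 2 and 3, 12.1 and 8.003 RPKM in GFP-negative cells, 63.5 RPKM in the clusters, 10.4 RPKM in the colonies, and 18.4, 27.9 and 6.72 RPKM in ESC 1, 2 and 3. MEF lay below every other group, and the clusters above every other library. Peg10 rose in ESC relative to MEF by 2.14 on the log2 scale (SE 0.46, limma adjusted p = 0.0112), and this held in all 18 alternatives. GFP-negative cells against MEF gave 1.56 (SE 0.52, limma adjusted p = 0.0986), which did not pass although the ranges were apart. It passed without ESC 3 (adjusted p = 0.0245). ESC against GFP-negative cells gave 0.59 (SE 0.52, limma adjusted p = 0.408), and 1.13 without ESC 3 (adjusted p = 0.0484).

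Mest encodes a protein of the alpha/beta hydrolase family. It was measured at 2.39, 3.02 and 36.2 RPKM in MEF 1, 2 and 3, at 0.116 and 0.0894 RPKM in GFP-negative cells, at 0.0045 RPKM in the clusters, at 0.635 RPKM in the colonies, and at 7.48, 4.69 and 2.57 RPKM in ESC 1, 2 and 3. The cluster value was 1 read (exact 95% Poisson interval 0.000114 to 0.0252 RPKM), against 32 and 23 reads in GFP-negative cells. GFP-negative cells, clusters and colonies lay below all MEF and ESC libraries. None of its tests passed: −0.52 (SE 0.82, limma adjusted p = 0.691) for ESC against MEF, −2.85 (SE 0.92, limma adjusted p = 0.0905) for GFP-negative cells against MEF, and 2.33 (SE 0.92, limma adjusted p = 0.0839) for ESC against GFP-negative cells. The last 2 passed without MEF 3 (−1.74 with adjusted p = 0.0316, and 2.33 with adjusted p = 0.00264), and both passed with a pseudocount of 0.1 (−5.02 and 4.50). The last also passed in the exact-0 set (2.66, adjusted p = 0.00698). ESC against MEF depended on the set. In the exact-0 set ESC had 7.48 and 4.69 RPKM, against 2.39 and 3.02 RPKM in MEF (log2 change 0.91, adjusted p = 0.124), and in the other set ESC 3 had 2.57 RPKM, against 36.2 RPKM in MEF 3.

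Counted together, 7 of the 10 members fell and 1 rose in ESC relative to MEF, where 15.9% of the 10647 genes tested were called (7.97% lower and 7.95% higher). Calls needed a limma adjusted p below 0.05 together with a log2 change of at least 1 in either direction. Both classes took part: 3 of 4 maternally expressed members (H19, Cdkn1c and Grb10) and 4 of 6 paternally expressed members (Igf2, Dlk1, Peg3 and Plagl1) fell. The median log2 change was −3.92 for the maternal class and −1.85 for the paternal class, against 0.14 for all genes. The class medians were −5.00 (maternal) and −2.47 (paternal) with a pseudocount of 0.1, and the maternal one was −3.31 without MEF 3. In GFP-negative cells relative to MEF, 7 members fell and 0 rose, where 7.62% of genes were called, 4.09% lower and 3.53% higher. The falls were H19, Cdkn1c and Grb10 of the maternal class and Igf2, Dlk1, Peg3 and Plagl1 of the paternal class. This comparison shares the MEF libraries with that of ESC. The median log2 change was −3.46 (maternal), −2.50 (paternal) and −0.13 (all genes). With a pseudocount of 0.1 the class medians were −4.06 (maternal) and −3.52 (paternal), and without MEF 3 or in the exact-0 set the maternal one was −2.87. In ESC relative to GFP-negative cells, 3 members fell (H19, Igf2 and Igf2r) and 0 rose, where 22.7% of genes were called, 8.35% lower and 14.3% higher. The 7 members without a call ranged from −0.62 (Cdkn1c) to 2.33 (Mest). Medians there were −1.18 (maternal), 0.44 (paternal) and 0.25 (all genes). The class medians were not tested against each other, and they can depend on gene span. Adding 1 RPKM shrinks the changes of members with low gene-span values. In GFP-negative cells relative to MEF, the mean was 29.9 times lower for Plagl1 and 6.13 times lower for Igf2. Their log2 changes were −2.44 and −2.51.

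**Figure D3:**
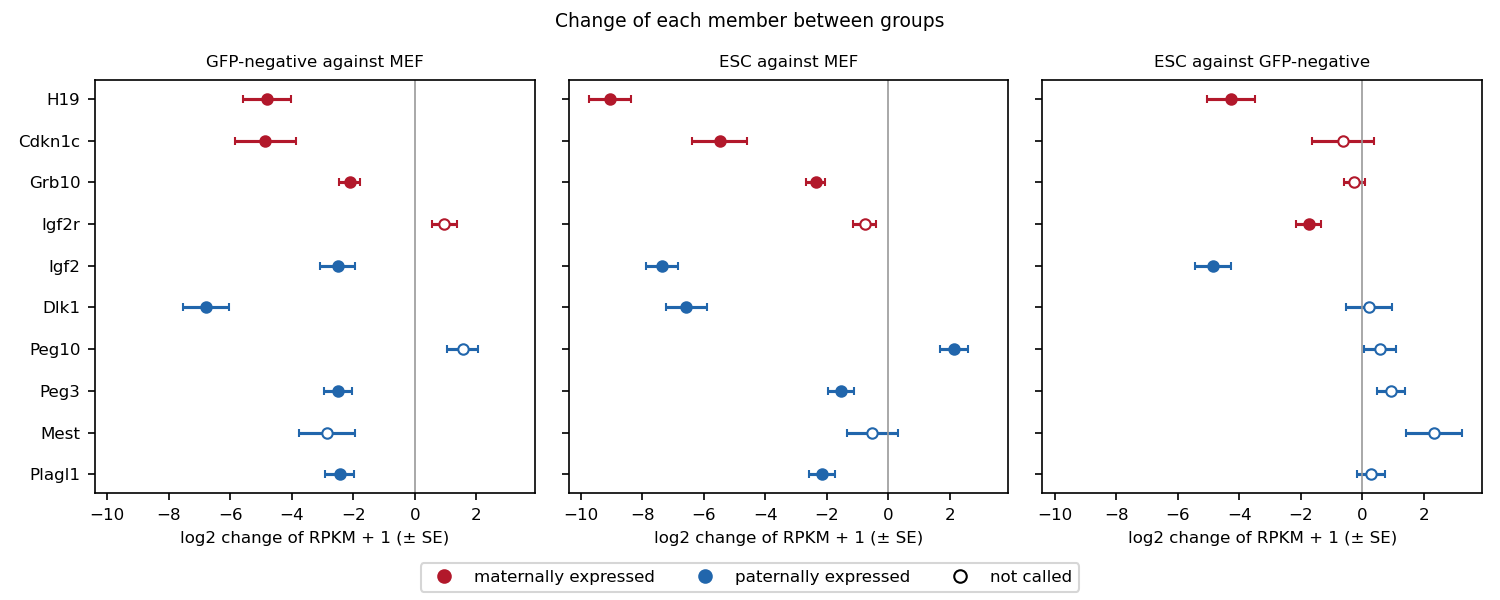
Log2 change of RPKM + 1 with its SE for each member in GFP-negative cells against MEF, ESC against MEF and ESC against GFP-negative cells, by limma. Filled points passed the threshold and open points did not, with red for maternal and blue for paternal expression. H19 and Igf2 are filled and left of 0 in all 3 panels, and Peg10 is the filled point right of 0, in ESC against MEF.

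The clusters and colonies had 1 library each, so their differences are values without a test, named when they reached 1 on the log2(RPKM + 1) scale. In the clusters against GFP-negative cells, 3 members were higher: Cdkn1c by 3.41, Peg10 by 2.57 and H19 by 1.91. For all genes 11.4% were that much higher and 13.2% that much lower. Of the 3 members, Cdkn1c and H19 are maternally expressed and Peg10 is paternally expressed, and on this scale no member was lower by 1 or more. The scale shrinks differences between values far below 1 RPKM. Mest was 22.8 times lower in the clusters than the GFP-negative mean (1 read, against 32 and 23). Its difference was −0.13 on this scale and −0.95 with a pseudocount of 0.1. Grb10 was at −1.01 with a pseudocount of 0.1, where 4 members passed a difference of 1. Relative to MEF, the clusters had 1 member higher (Peg10, 4.13) and 8 lower, with 10.8% of genes higher and 19.7% lower. Igf2r was the member in between, at 0.32.

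In the colonies against the clusters, 2 members were higher and 3 lower, with 27.3% of genes higher and 12.6% lower. Igf2 was lower by 4.06, Peg10 by 2.50 and Cdkn1c by 1.42 on the log2 scale, and Dlk1 and Plagl1 were higher by 1.24 and 1.09. H19 differed by −0.80, so H19 was much nearer its cluster level than Igf2 was. With a pseudocount of 0.1, 8 members passed a difference of 1, among them Mest (2.82) and Grb10 (1.10), which rest on low values in the clusters. These libraries also differ in how 0 is written and in their endoderm markers, and the part of either was not tested.

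Set against ESC, the colonies had 4 members higher and 1 lower, with 14.9% of genes higher and 9.24% lower. H19 was higher by 5.37, Cdkn1c by 2.62, Igf2 by 1.56 and Dlk1 by 1.01, and Mest was lower by 1.77. Dlk1 was just past 1, and 4 members in all passed with median-ratio scaling, against 6 with a pseudocount of 0.1, where Plagl1 reached 1.39. Against ESC 3 alone, which shares the colonies' way of writing 0, H19 was 145 RPKM in the colonies and 9.35 RPKM in ESC 3, and Igf2 was 5.65 RPKM in the colonies and 4.13 RPKM in ESC 3. Peg10, Peg3 and Grb10 in the colonies lay within the ESC range.

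CiPSC lines 6 and 11 were compared with ESC 4, the libraries on the exon scale. None of the 10 members was called by limma, where 0.16% of genes were called. Mest was the most abundant member, at 26.3 and 29.3 RPKM in CiPSC 6 and 11, against 22.02 RPKM in ESC 4. H19 was at 1.72 and 1.15 RPKM in CiPSC 6 and 11, against 1.02 RPKM in ESC 4, and Igf2 at 0.242 and 0.200 RPKM in CiPSC 6 and 11, against 0.195 RPKM in ESC 4. Thus H19, Igf2, Cdkn1c (0.276 and 0.266 RPKM in CiPSC, against 0.294 RPKM in ESC 4) and Dlk1 (0.442 and 0.499 RPKM in CiPSC, against 0.258 RPKM in ESC 4) were low in all 3 libraries. Igf2r stood at 5.68 and 5.37 RPKM in CiPSC, against 5.23 RPKM in ESC 4. Grb10 stood at 1.57 and 1.77 RPKM in CiPSC, against 2.22 RPKM in ESC 4. Plagl1 stood at 2.54 and 2.27 RPKM in CiPSC, against 2.78 RPKM in ESC 4. The paternally expressed members Peg3 and Peg10 had the largest differences on the log2(RPKM + 1) scale. Peg3 was at 6.40 and 6.15 RPKM in CiPSC and 1.76 RPKM in ESC 4, and Peg10 at 10.7 and 9.19 RPKM in CiPSC and 5.65 RPKM in ESC 4. The Peg3 log2 difference was 1.40 (SE 0.62, limma unadjusted p = 0.0511, adjusted p = 1.0) and that of Peg10 0.72 (SE 0.69, limma unadjusted p = 0.328, adjusted p = 1.0). With 1 ESC library this comparison borrows its spread from the other groups, and a missed threshold does not show that the lines were alike.

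**Figure D4:**
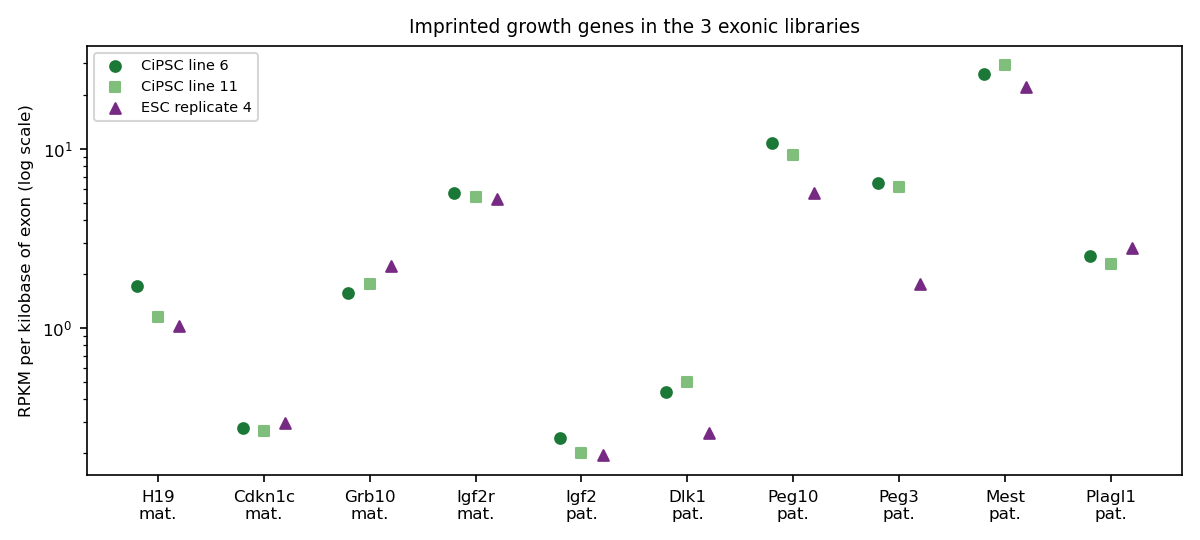
RPKM per kilobase of exon of the 10 members in CiPSC line 6, CiPSC line 11 and ESC replicate 4, on a log axis, with maternally expressed members on the left. On this axis Peg3 shows the widest gap, with both CiPSC lines (6.40 and 6.15) above ESC 4 (1.76), and H19, Igf2, Cdkn1c and Dlk1 lie under 2 RPKM in all 3 libraries.

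Of 45 other imprinted genes listed, 33 were in the table and 21 were tested. In ESC relative to MEF, 2 rose and 3 fell, where 15.9% of all genes were called, with a median log2 change of 0.02, against 0.14 for all genes. In GFP-negative cells relative to MEF, 1 rose and 3 fell, where 7.62% of all genes were called, with a median of −0.17, against −0.13 for all genes. Phlda2, the maternally expressed neighbour of Cdkn1c that limits placental growth, rose in ESC relative to MEF (log2 change 2.18, SE 0.54, limma adjusted p = 0.0208). It had 5.28, 0.58 and 8.41 RPKM in ESC, against 0 in MEF 1 and 2 and the 0.001 written for 0 in MEF 3. That call was lost without MEF 1, MEF 2 or ESC 1 and in the exact-0 set (adjusted p 0.0597 to 0.139). Ndn, which encodes necdin, fell in ESC (−2.97) and in GFP-negative cells (−4.35) relative to MEF, with the ESC call lost in the exact-0 set (−2.42, adjusted p = 0.0734). Peg12 fell in both as well (−1.73 in ESC, −2.33 in GFP-negative cells). Zim1, the maternally expressed neighbour of Peg3, fell in both too (−1.23 in ESC, −1.31 in GFP-negative cells), and without MEF 3 the changes were −0.91 and −0.99, under the size a call needs. They were −0.90 and −0.99 in the exact-0 set, and the GFP-negative call was also lost without GFP-negative 1 (adjusted p = 0.0812). Zdbf2 rose in ESC relative to MEF (1.55) and to GFP-negative cells (2.05), with the first call lost without MEF 1, ESC 1 or ESC 2. Mcts2 rose in GFP-negative cells relative to MEF (2.10, limma adjusted p = 0.0494), a call lost in 15 of 18 alternatives. In ESC relative to GFP-negative cells Phlda2 and Zdbf2 rose and 0 of the 21 fell, where 22.7% of all genes were called, with Phlda2 lost in 5 of 18 alternatives.

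The remaining genes of the members' domains gave no call. Rtl1, in the Dlk1 domain, had 1.10, 0.845 and 0.511 RPKM in ESC, 2.14 RPKM in the colonies and at most 0.0201 RPKM in the clusters and GFP-negative cells, against 0.167, 0.475 and 3.78 RPKM in MEF. Dio3, of the same domain, was highest in the colonies at 2.83 RPKM. Copg2, beside Mest, had 1.08, 1.11 and 0.537 RPKM in ESC, against 0.374, 0.398 and 2.50 RPKM in MEF. Near Cdkn1c, Osbpl5 had a small adjusted p but too small a change in ESC relative to MEF (log2 change −0.94, SE 0.12, limma adjusted p = 0.001) and in GFP-negative cells relative to MEF (−0.94, SE 0.13, limma adjusted p = 0.00406). Cd81 (−1.15, limma adjusted p = 0.0949), Tssc4 (−1.06, limma adjusted p = 0.22) and Ascl2 (0.17, limma adjusted p = 0.665) of that domain did not pass in ESC relative to MEF, and neither did Tfpi2 near Peg10 (−0.79, limma adjusted p = 0.0454), whose change was too small. Sgce, which shares a promoter region with Peg10, had 0.183, 0.0567 and 0.0411 RPKM in ESC, against 0.205, 0.284 and 0.703 RPKM in MEF, and was too low to be tested. Kcnq1, Slc22a18, Asb4, Ppp1r9a, Calcr, Usp29, Klf14 and Slc22a2 did not reach 1 RPKM in at least 2 libraries and were not tested.

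The IGF pathway list had 16 genes, of which 14 were in the table and 12 were tested. In ESC relative to MEF 6 fell and 1 rose, in GFP-negative cells relative to MEF 2 fell and 0 rose, and in ESC relative to GFP-negative cells 4 fell and 2 rose. Of all genes, 15.9% were called in ESC relative to MEF, 7.62% in GFP-negative cells relative to MEF and 22.7% in ESC relative to GFP-negative cells. The falls were mostly among the binding proteins that hold IGFs outside the cell. Igfbp2, also a binding protein, rose in ESC relative to GFP-negative cells (2.22, limma adjusted p = 0.0142). Igfbp3 fell in ESC relative to MEF (−5.26, SE 0.41, limma adjusted p = 7.8e-05), as did Igfbp7 (−1.42). Igfbp4 had 0.481, 0.145 and 1.86 RPKM in ESC, against 71.2 and 52.1 RPKM in GFP-negative cells and 24.7, 24.8 and 104 RPKM in MEF, and it fell in ESC relative to both (−5.19 relative to GFP-negative cells, −4.60 relative to MEF). Igfbp5 (−5.48) and Irs1, an adaptor of the insulin and IGF1 receptors (−1.62), fell in ESC relative to GFP-negative cells. The falls in GFP-negative cells relative to MEF were Igfbp3 (−2.15, limma adjusted p = 0.0234) and Igfbp6 (−2.27, limma adjusted p = 0.0444), and these calls were lost in 7 and 16 of 18 alternatives. Igf2bp1, an RNA-binding protein named for its binding to Igf2 messenger RNA, rose in ESC relative to MEF (2.76) and to GFP-negative cells (3.12). It had 12.2, 12.3 and 11.0 RPKM in ESC, against 1.001, 0.989 and 0.705 RPKM in MEF.

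The list of genes for imprint maintenance held 8, all tested. In ESC relative to MEF 3 rose and 0 fell, where 7.95% of all genes rose: Zfp57, the zinc finger protein that binds methylated imprint control regions (3.15), Trim28, its partner (2.35), and Uhrf1, which brings DNA methyltransferase to replicated DNA (1.95, lost in the exact-0 set with adjusted p = 0.121 and with a pseudocount of 0.1 at adjusted p = 0.0815). In GFP-negative cells relative to MEF 0 passed by limma, where 7.62% of all genes did. The changes there ranged from −1.56 (Trim28) to 0.002 (Arid4b). In ESC relative to GFP-negative cells 5 rose, where 14.3% of all genes did, led by Zfp57 (4.38), Trim28 (3.91) and Uhrf1 (3.23). Ctcf, which binds the control region between Igf2 and H19, was at 1.15. Zfp57 stood at 0.793 and 0.202 RPKM in GFP-negative cells, 0.27 RPKM in the clusters and 0.812 RPKM in the colonies, and at 36.6, 37.3 and 18.7 RPKM in ESC. The colonies had Trim28 at 48.6 RPKM, against 91.0, 111 and 182 RPKM in ESC.

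For each member the genes with the nearest pattern were taken by root-mean-square distance of centred log2(RPKM + 1) values over the 10 gene-span libraries. The nearest to H19 was Igf2 (1.35), the only member named for another. Next to Igf2 stood Col6a1 (0.85) and Col3a1 (0.99), next to Dlk1 Mfap4 (0.82) and Col1a1 (0.85), and next to Cdkn1c Col1a2 (1.09) and Col6a2 (1.14), which are mostly matrix genes of fibroblasts. Peg10 was nearest to Aldoc (0.66), Peg3 to Cdo1 (0.49), Mest to Ccdc8 (0.80), Grb10 to Chst2 (0.22), Igf2r to Ephx1 (0.30) and Plagl1 to Leprel2 (0.27). The distance is smaller for members that vary less, so it does not rank the members.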

How the data were processed

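RNA from 13 libraries was analysed from the authors' deposited table of RPKM. TopHat 1.3.0 and the mm9 build are named in the submitters' processing notes, while counter, annotation and strand handling were not stated there. Of 15184 rows, 8 that shared 1 symbol were left out. The length scale of each library was inferred from the values. Depth was estimated from steps in low values using gene lengths, with 77.0 to 83.6% of low values within 0.05 of a whole read in the gene-span libraries. Poisson intervals and the floor of 3 reads cover counting error only. The 10647 genes that reached 1 RPKM in no fewer than 2 libraries were fitted as log2(RPKM + 1) with limma 3.58.1 (R 4.3.3). All 13 libraries entered, with a coefficient for each group, a term for the length scale and Benjamini-Hochberg adjustment, giving 6 residual degrees of freedom. The fit was tested on simulated data. Replicates differed beyond sampling noise. Named genes were the members, their domain neighbours, up to 4 called genes per list and comparison by smallest p, and the 2 nearest genes by pattern. The members and lists were chosen with earlier results of these data known. Alternatives were the pseudocount, filter, scaling, replicate block, value set and leaving out libraries.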

Additional observations from a re-analysis of the deposited data

How the results depend on the processing

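Of the members' tests, 301 alternatives of called results kept the call and the direction and 23 kept only the direction, while 9 alternatives of uncalled results passed the threshold. The 5 reversals all concern uncalled changes: Mest in ESC against MEF in the exact-0 set (0.91) and over single libraries left out (−1.14 to 0.59, highest without MEF 3), Dlk1 in ESC against GFP-negative cells with the replicate block and with a term for libraries with 0.001 (−0.32 in each), and Grb10 in ESC against GFP-negative cells over single libraries left out (−0.88 to 0.38, highest without GFP-negative 2). Both Dlk1 settings set MEF 3 and ESC 3 apart from replicates 1 and 2, so these Dlk1 reversals are not separate. With a pseudocount of 0.1, called genes numbered 2590 in ESC against MEF (1695 with 1), 1391 in GFP-negative cells against MEF (811), 3861 in ESC against GFP-negative cells (2415) and 3 in CiPSC against ESC (17), and the share of higher calls in GFP-negative cells against MEF was 33.6% in place of 46.4%. The members past a difference of 1 in colonies against clusters were 8 in place of 5. GFP-negative cells against MEF gave 453 called genes in the gene-span libraries alone and 343 in the exact-0 set, and CiPSC against ESC gave 50 with no filter. Leaving out 1 library gave 1330 to 1859 genes and 7 to 8 members in ESC against MEF, 453 to 1499 genes (lowest without ESC 4, with 490 and 488 without CiPSC 6 and 11, highest without GFP-negative 2) and 4 to 8 members (4 without GFP-negative 1) in GFP-negative cells against MEF, 2026 to 2916 genes and 3 to 4 members in ESC against GFP-negative cells, and 10 (without CiPSC 6) to 46 (without ESC 3) genes and 0 members in CiPSC against ESC. ESC 4 was not left out alone: the fit named without ESC 4 left out both CiPSC libraries as well. It is the fit of the gene-span libraries alone, so the 453 genes are 1 result given under 2 names. They do not show the effect of ESC 4 by itself. In the fits with libraries left out, a group left with 1 library is assumed to vary like the other groups. The cause of these shifts was not tested.

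Replicate numbers 1 and 2 do not pair the libraries by their labels. The difference between replicates 1 and 2 of a group was correlated over genes with that of another group. These correlations were weak (−0.07 for ESC and MEF, −0.04 for GFP-negative cells and MEF, 0.08 for ESC and GFP-negative cells). With the replicate block, called genes and members were 1986 and 8 in ESC against MEF, 948 and 7 in GFP-negative cells against MEF, 2631 and 3 in ESC against GFP-negative cells, and 20 and 0 in CiPSC against ESC. The block also sets MEF 3 and ESC 3 apart from replicates 1 and 2, as the term for libraries with 0.001 does. H19 in GFP-negative cells against MEF was −4.17 with either. In this block, pairing cannot be told apart from how 0 is written.

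Clusters and colonies have 1 library each, and CiPSC are compared with 1 ESC library. Dlk1 and Mest rest on 1 to 32 reads in GFP-negative cells and clusters, so their fitted changes follow the pseudocount. Gene-span RPKM lowers genes with long introns, such as Grb10, Igf2r, Plagl1 and Igf2, against compact ones such as H19. No level was compared across the length scales.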
